A study of Homo sapiens with 6 samples.

Results

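Histone genes encode the proteins around which DNA is wound and were examined here in TPC1 cells, an established human papillary thyroid carcinoma line. The members were the rows of the count table whose symbol began with H1-, H2AC, H2BC, H3C or H4C and a number, plus 8 named variants, without pseudogenes and without the antisense transcript H1-10-AS1. The 64 genes described here, of 21173 with a row, were 55 replication-dependent genes and 9 variant genes (H1-10, H2AX, H2AZ1, H2AZ2, H2AJ, MACROH2A1, MACROH2A2, H3-3A and H3-3B). RNA had been sequenced from 3 libraries of cells with a vector and 3 libraries of cells overexpressing the transcription factor TFCP2L1. The labels give vector cells the genotype WT and the others TFCP2L1 OE, and name no promoter, no clone, no time and no further treatment. Nothing there states whether the 3 replicates of a group were grown separately. The p-values therefore speak only of the spread among these 6 libraries, which may be technical.

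Replication-dependent histone genes lie in clusters, have no introns in their coding part and are transcribed mainly in S phase, when new DNA needs new nucleosomes. Their mRNAs typically end in a conserved stem-loop in place of a poly(A) tail, and the stem-loop is bound by SLBP. Some of them can also make longer, polyadenylated mRNAs. Variant genes such as H3-3A and H2AZ1 are expressed outside S phase too, lie apart from the clusters and make polyadenylated mRNAs. The sources used here do not state whether RNA was selected by its poly(A) tail or whether reads were counted by strand.

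Library totals ran from 37928516 to 38987434 reads. Reads of TFCP2L1 itself numbered 0, 0 and 1 under vector and 13578, 13885 and 12333 under overexpression, as the labels say. Of the genes that mark the line, PAX8 had 449 to 571 CPM (reads scaled to library size), KRT18 147 to 177 CPM and RET 46.4 to 52.6 CPM over the 6 libraries. TG, which encodes the thyroid hormone precursor thyroglobulin, had 0.770 to 1.49 CPM. Of 7 fibroblast markers 6 had a read in vector and 4 in TFCP2L1 libraries, with summed levels of 106 to 117 and 80.6 to 89.5 CPM, and DCN was at 0 in both, COL1A2 and COL3A1 in TFCP2L1 libraries. Of 7 leukocyte markers 5 had a read in each group (70.0 to 85.2 and 98.3 to 126 CPM, CD3E and MS4A1 at 0), and of 5 endothelial markers 4 (49.2 to 51.9 and 41.9 to 67.8 CPM, CDH5 at 0). Their part in the results was not tested. Mitochondrially encoded genes took 5.13% to 6.72% of reads in vector and 5.19% to 7.59% in TFCP2L1 libraries.

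The 3' stem-loop is shown first because it is the part that sets replication-dependent histone mRNAs apart. A script searched GENCODE v29 transcripts for the 16-base histone stem-loop consensus, allowing either pyrimidine or either purine where the consensus does. Of the 55 replication-dependent genes 51 matched that annotation, and 24 of them had a transcript with the stem-loop. Of the 9 variant genes only H2AX had it. Capitals mark the arms of the stem and lower case the loop.
H2AC6: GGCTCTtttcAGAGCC
H2BC21: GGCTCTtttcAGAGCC
H2BC4: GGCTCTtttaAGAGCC
H2BC5: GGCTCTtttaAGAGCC
H3C6: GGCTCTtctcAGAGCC
H4C8: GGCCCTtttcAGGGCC
H2AX: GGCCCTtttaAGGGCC
The form of H2AC6 and H2BC21 was the most frequent, found in 11 genes, while H2BC4 and H2BC5 shared theirs with H2BC7 and H3C8. In 18 of the 24 replication-dependent genes an annotated transcript ran more than 100 bases past the stem-loop. Among them were H2BC21 (1729 bases), H2AC6 (1128 bases) and H3C6 (1862 bases), with H2BC4 at 116 bases. Annotated models of many other members, such as H2BC12, cover the coding part alone, so no match there says only that these letters are not in the model.

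Promoters are shown for 4 H2B genes because the octamer ATTTGCAT, the recognition sequence of the factor POU2F1 (OCT1), is a known element of H2B promoters. Each sequence runs from 250 bases before to 50 bases after the start given by RefSeq (GRCh38.p14), 5' to 3' on the gene's strand, and capitals mark the octamer. The windows are chr6:26123877-26124176, minus strand for H2BC4, chr6:27146809-27147108, minus strand for H2BC12, chr1:149886633-149886932, minus strand for H2BC21 and chr6:26157871-26158170, plus strand for H2BC5.
H2BC4: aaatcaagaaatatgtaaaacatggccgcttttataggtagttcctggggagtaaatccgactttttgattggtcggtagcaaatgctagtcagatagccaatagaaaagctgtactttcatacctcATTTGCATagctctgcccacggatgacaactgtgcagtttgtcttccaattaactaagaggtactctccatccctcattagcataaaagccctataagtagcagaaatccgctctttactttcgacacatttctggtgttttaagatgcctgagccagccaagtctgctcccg
H2BC12: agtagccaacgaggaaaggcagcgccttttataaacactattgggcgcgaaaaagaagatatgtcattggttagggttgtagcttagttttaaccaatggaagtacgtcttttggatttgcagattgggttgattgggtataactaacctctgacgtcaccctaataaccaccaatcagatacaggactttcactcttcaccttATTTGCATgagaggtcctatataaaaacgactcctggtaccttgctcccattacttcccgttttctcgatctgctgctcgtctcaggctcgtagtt
H2BC21: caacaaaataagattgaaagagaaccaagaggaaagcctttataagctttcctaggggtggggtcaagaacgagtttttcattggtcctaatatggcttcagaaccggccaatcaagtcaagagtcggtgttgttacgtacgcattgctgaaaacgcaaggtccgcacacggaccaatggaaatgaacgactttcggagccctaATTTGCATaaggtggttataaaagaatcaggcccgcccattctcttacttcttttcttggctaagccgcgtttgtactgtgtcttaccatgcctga
H2BC5: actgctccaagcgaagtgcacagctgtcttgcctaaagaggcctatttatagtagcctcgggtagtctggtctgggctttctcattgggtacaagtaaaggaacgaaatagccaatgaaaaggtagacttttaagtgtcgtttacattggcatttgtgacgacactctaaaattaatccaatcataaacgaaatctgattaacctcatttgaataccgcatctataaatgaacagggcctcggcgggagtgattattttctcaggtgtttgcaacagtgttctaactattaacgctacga
Searched on both strands, the octamer was in 12 of 15 promoters of replication-dependent H2B genes and in 9 of 13 of H2A genes, against 1.80% of 27305 promoters of all genes. It was in 1 of 9 H3 promoters and in 0 of 5 H1 and 0 of 9 H4 promoters. The H2B genes without these exact letters were H2BC5, H2BC13 and H2BC15. The letters CCAAT were in 43 of 51 replication-dependent promoters (35.7% of all promoters) and TATAAA in 33 of 51 (3264 of all 27305). A direct repeat of CCAG with 6 bases between, a simplified form of the known TFCP2L1 motif, was in 0 of 51 of them and in 4.14% of all promoters. Among the 9 variant promoters it was in that of H1-10. A match is a description of letters and not a site.

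Windows of 7 divergent pairs of an H2A and an H2B gene overlapped, and for H2BC4 and H2AC6 they shared 255 bases, so the octamer printed for H2BC4 also lies in the H2AC6 window on the other strand. Both genes of that pair fell in TFCP2L1 cells. Likewise, 1 octamer lay in both windows of the pairs H2BC8 and H2AC8, H2BC11 and H2AC11, H2BC17 and H2AC17, and H2BC21 and H2AC20. The H2A count of octamers therefore repeats some of those counted for H2B genes. So does the H3 count: its 1 octamer, in the H3C4 window, was also that of H2BC7, and these 2 windows share 278 bases. In the pair H2BC21 and H2AC20, H2BC21 fell, and H2AC20 had a log2 fold change of 0.22 ± 0.69 (SE).

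Replication-dependent histone genes made up little of these libraries. Their 55 genes together had 2760, 2793 and 2385 reads in vector libraries 1 to 3 and 1937, 1857 and 1766 in TFCP2L1 libraries 1 to 3. The highest TFCP2L1 library lay below the lowest vector library, and the ratio of the mean shares of reads was 0.693. This sum includes H2BC12, H2BC4, H2BC21 and H2AC6, 4 genes picked out in earlier work on the same libraries. Those 4 had 1714, 1833 and 1536 reads in vector and 999, 1019 and 996 in TFCP2L1 libraries, a ratio of shares of 0.587. The lower sum is therefore no independent evidence of a fall across the class. The 9 variant genes had 45719 to 49589 reads in vector and 51395 to 59710 in TFCP2L1 libraries. On the deposited FPKM scale, which divides reads by gene length, the summed level was 80.7 ± 7.57 (SD, n = 3) in vector and 59.5 ± 3.53 in TFCP2L1 cells for replication-dependent genes, and 769 ± 38.4 and 869 ± 104 for variant genes. In bulk samples, fewer cells making a transcript and less of it per cell cannot be told apart.

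A few genes held most of these reads. H2BC12 took 43.2% of the 13498 replication-dependent reads over the 6 libraries, the linker histone gene H1-2 15.6% and H2BC5 8.76%. The 5 genes with the most reads, which also include H2BC4 and H2AC6, took 79.8%. Gene lengths behind the FPKM had a median of 494 bases, and 8 of the 55 were over 800 bases. Those 8, H2BC12, H2BC5, H2BC4, H2BC21, H3C6, H2BC18, H3C4 and H4C15, held 66.5% of the reads. Length alone did not go with many reads: H2BC18, with 1064 bases, had 13 reads in all and H4C15, with 2662 bases, had 11. Of the 50-base stretches of their GENCODE v29 transcripts, 25.7% for H2BC18 and 97.2% for H4C15 also occur in other transcripts. The treatment of reads that match several genes is not stated, so the level of H4C15 is uncertain. H2AC6 and H1-2 were among the short models, at 519 and 731 bases.

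**Figure D1:**
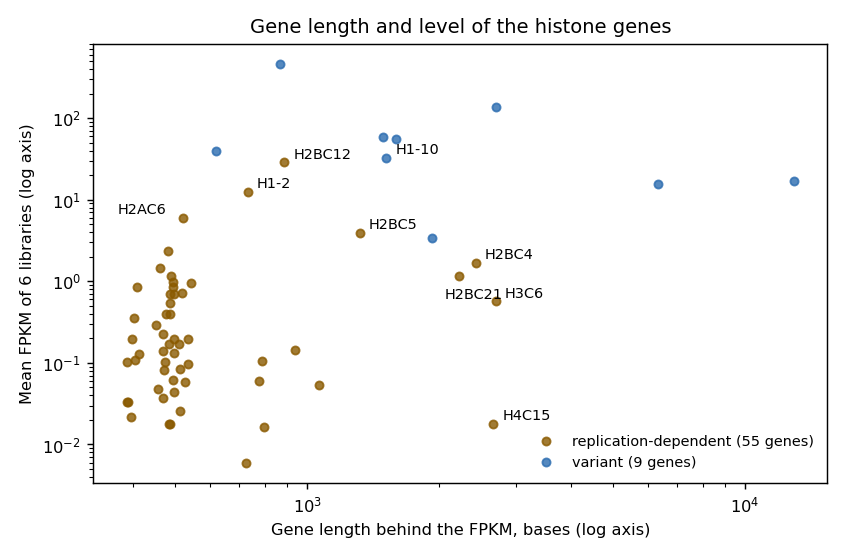
Mean FPKM over the 6 libraries (y axis, log) against the gene length behind the FPKM in bases (x axis, log) for 55 replication-dependent and 9 variant histone genes, 1 point per gene. Most short replication-dependent genes lie below 1 FPKM, H2BC12 at 28.6 FPKM is the highest of that class, and the variant genes lie between 3.35 and 462 FPKM.

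By class, H2B genes dominated the replication-dependent total. Their summed level was 51.5 ± 4.81 FPKM (SD, n = 3) in vector and 33.0 ± 1.27 FPKM in TFCP2L1 cells, with no overlap between the groups. That sum includes H2BC12, H2BC4 and H2BC21, which were picked out in earlier work on the same libraries. Replication-dependent H2A genes summed to 12.1 ± 1.66 and 9.11 ± 0.916 FPKM, also with no overlap. In reads, the H2A sum was 219, 274 and 214 in vector and 159, 180 and 194 in TFCP2L1 libraries. H2AC6, likewise picked out earlier, alone held 140, 196 and 130 of these in vector and 66, 104 and 82 in TFCP2L1 libraries. The lower H2A sum therefore does not show a fall of the other H2A genes. Of the 5 tested H2A genes, 3 had a log2 fold change above 0 and 2 below. H1 genes summed to 12.5 ± 1.69 and 12.8 ± 2.92 FPKM. H3 genes summed to 2.68 ± 0.332 and 2.80 ± 0.0813 FPKM (in reads, 94 to 131 and 80 to 99). H4 genes summed to 1.93 ± 0.557 and 1.77 ± 0.330 FPKM. The groups of H1, H3 and H4 overlapped. Variant H3 genes stood far above the replication-dependent ones, at 185 ± 12.6 and 204 ± 18.7 FPKM. H1-10, the variant H1 gene shown, had 25.9 ± 3.70 and 39.7 ± 2.06 FPKM, and its groups did not overlap. These sums are descriptions, without a test.

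**Figure D2:**
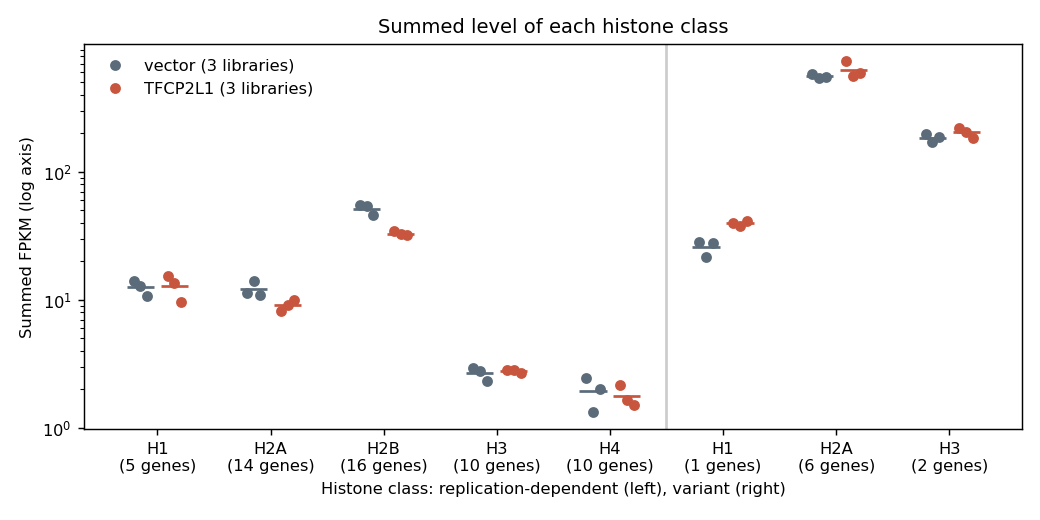
Summed FPKM (y axis, log) of each histone class, 5 replication-dependent classes on the left and 3 variant classes on the right, with 1 point per library and a bar at the group mean. Replication-dependent H2B lies lower in all 3 TFCP2L1 libraries (32.0 to 34.4 FPKM) than in the vector libraries (46.0 to 54.9 FPKM), and variant H1, which is H1-10, lies higher.

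Overexpression of the factor was set against the vector to ask which histone transcripts differ. Of the 55 replication-dependent genes 17 had enough reads to be tested, and 4 of the 17 fell at a Benjamini-Hochberg adjusted p under 0.05 over all 14431 genes tested (edgeR's quasi-likelihood test): H2BC12, H2BC4, H2BC21 and H2AC6. These 4 had been picked out as leading genes in earlier work on the same libraries, so their calls are no independent evidence. Over all genes tested, 6.94% were called lower and 4.63% higher. None of the 17 was called higher by edgeR, DESeq2 or limma-voom, and 0 had an unadjusted p under 0.05 in that direction against 8 in the lower direction. Over all 14431 genes tested, 1705 were higher and 1926 lower at an unadjusted p under 0.05 by edgeR. The median log2 fold change of the 17 was -0.53, beside 0.00259 over all genes tested. For 9 of the 17 the TFCP2L1 libraries all lay below the vector libraries, which held for 15.6% of all genes tested. The 4 genes picked out earlier are among the 8 and the 9 and enter the median. These figures are therefore no independent evidence either. The other 38 genes were too low to test, so these figures do not cover them. With the low-count filter removed the median over all 55 was 0.11.

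Of the 9 variant genes, all tested, 2 rose and 0 fell: H1-10 and H2AX. At an unadjusted p under 0.05, 3 were higher and 0 lower by edgeR, and DESeq2 also called 2 higher and 0 lower. Their median log2 fold change was 0.13. Over all 14431 genes tested, edgeR called 4.63% higher and 6.94% lower. At an unadjusted p under 0.05, 1705 of these were higher and 1926 lower.

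**Figure D3:**
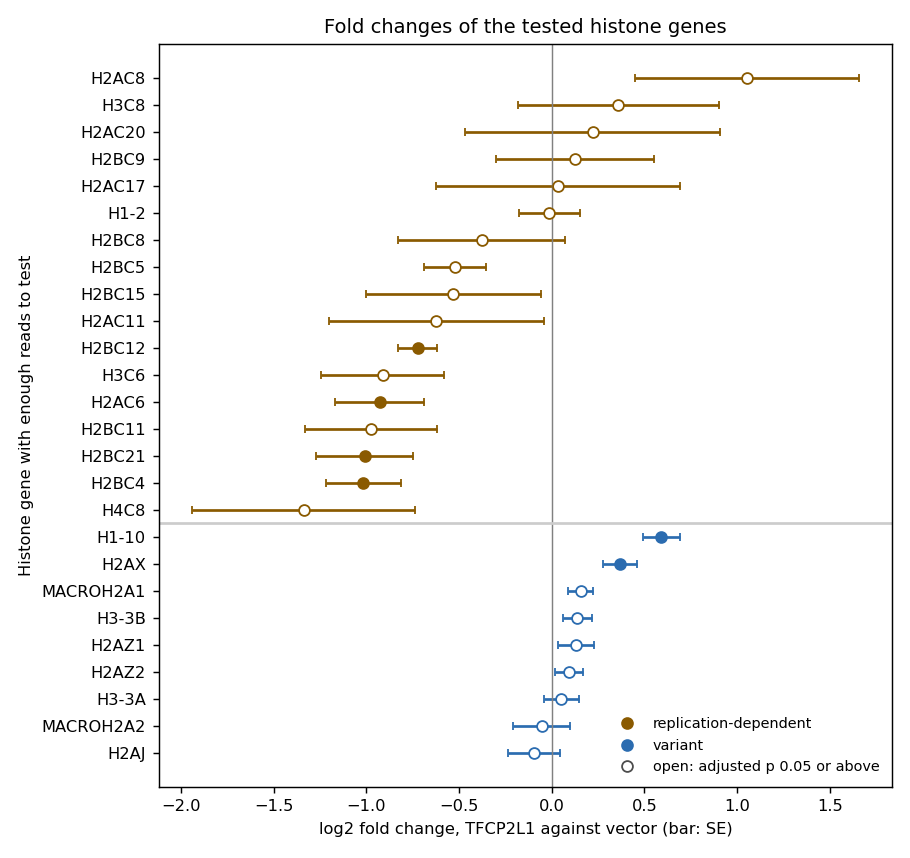
Log2 fold change of TFCP2L1 against vector cells (x axis, bars are standard errors) for the 17 tested replication-dependent genes (top) and 9 variant genes (bottom), filled where the edgeR adjusted p was under 0.05. The filled replication-dependent points, H2BC12, H2AC6, H2BC21 and H2BC4, lie between -1.02 and -0.72, and the filled variant points, H2AX and H1-10, lie at 0.37 and 0.59.

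H2BC12 encodes an H2B protein of the nucleosome core (ENSG00000197903.7; GRCh38 chromosome 6, 27146418 to 27146798, minus strand) and was the most abundant replication-dependent gene. Its level was 33.9, 33.5 and 27.7 CPM in vector libraries 1 to 3 and 20.2, 18.9 and 18.5 CPM in TFCP2L1 libraries 1 to 3. The groups did not overlap. On the log2 scale H2BC12 fell by 0.72 ± 0.11 (SE; edgeR adjusted p = 0.000235). Of the 50-base stretches of its annotated model, which holds the coding part alone, 74.1% also occur in other transcripts. That model has 381 bases, against a gene length of 887 bases behind the FPKM, and sequence outside it was not examined. The treatment of reads that match several genes is not stated, so the level of this single copy is uncertain.

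H2BC4, another H2B gene (ENSG00000180596.7; chromosome 6, 26114873 to 26123926, minus strand), stood at 5.18, 5.39 and 6.06 CPM in vector and 2.08, 3.01 and 3.13 CPM in TFCP2L1 libraries. Every TFCP2L1 library lay below every vector library. H2BC4 had a log2 fold change of -1.02 ± 0.20 (edgeR adjusted p = 0.00315). Of the 50-base stretches of its GENCODE v29 transcripts, 6.63% occur elsewhere. Those transcripts cover 834 bases, against a gene length of 2426 bases behind the FPKM, so this share does not describe the whole counted model.

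H2AC6, its divergent H2A neighbour (ENSG00000180573.9; chromosome 6, 26124145 to 26139116, plus strand), stood at 3.72, 5.20 and 3.43 CPM in vector and 1.69, 2.65 and 2.14 CPM in TFCP2L1 libraries. The groups did not overlap, though vector replicate 2 was well above the other two. On the log2 scale H2AC6 fell by 0.93 ± 0.24 (edgeR adjusted p = 0.0189), and the adjusted p was 0.1002 without vector replicate 2 and 0.0918 without TFCP2L1 replicate 1.

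H2BC21 is the only one of the 4 outside the large cluster (ENSG00000184678.10; chromosome 1, 149884459 to 149886652, minus strand). It stood at 2.71, 4.54 and 3.29 CPM in vector and 1.61, 1.43 and 2.19 CPM in TFCP2L1 libraries, with no overlap. On the log2 scale H2BC21 fell by 1.01 ± 0.26 (edgeR adjusted p = 0.0193). This call was the least stable of the 4. It was lost without vector replicate 2 (0.106) or 3 (0.0560), without TFCP2L1 replicate 1 (0.0793) or 2 (0.0641), and with the replicate number as a block (0.0650).

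The count of 4 rested on these last 2 genes: it was 2 without vector replicate 2 and 2 without TFCP2L1 replicate 1. H2BC12 and H2BC4 were called under all 16 alternative settings.

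Of the 8 tested H2B genes 5 did not pass the threshold. H2BC5 stood at 6.85, 5.89 and 5.51 CPM in vector and 4.56, 3.88 and 4.28 CPM in TFCP2L1 libraries, with no overlap, a log2 fold change of -0.52 ± 0.17 and an edgeR adjusted p of 0.0582. H2BC11 stood at 1.67, 1.70 and 1.19 CPM against 0.948, 0.740 and 0.626 CPM (-0.97 ± 0.35, edgeR adjusted p = 0.0901). With limma on log2(FPKM + 1) both passed the threshold (adjusted p = 0.0359 and 0.0242). H2BC15 (-0.53 ± 0.47), H2BC8 (-0.38 ± 0.45) and H2BC9 (0.13 ± 0.43) rested on 118, 129 and 153 reads over the 6 libraries. The groups of H2BC15 did not overlap, and those of H2BC8 and H2BC9 did.

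H1-2, a linker histone that binds DNA between nucleosomes and the member with the second most reads, had 10.3, 9.34 and 7.83 CPM in vector and 10.8, 9.54 and 6.97 CPM in TFCP2L1 libraries. The groups overlapped, and the log2 fold change was -0.01 ± 0.17 (edgeR adjusted p = 0.978).

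The single tested H4 gene and the remaining H2A genes were low. H4C8 had 24, 16 and 17 reads in vector and 14, 5 and 4 in TFCP2L1 libraries, with no overlap (log2 fold change -1.34 ± 0.60, edgeR adjusted p = 0.177). H2AC11 (-0.62 ± 0.58), H2AC20 and H2AC8 (1.05 ± 0.61) had overlapping groups. Of the tested genes that the naming rule leaves out, named after their values were seen, H3C6 had 74, 93 and 62 against 42, 28 and 55 reads (-0.91 ± 0.33, edgeR adjusted p = 0.0914). H2AC17 (0.04 ± 0.66) and H3C8 (0.36 ± 0.54) had overlapping groups.

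The 38 untested replication-dependent genes held 248 reads in vector and 326 in TFCP2L1 libraries, and 23 of them had 10 reads or more in all. H3C10 had the most, 61 reads. H2AC14 had 1, 2 and 5 reads in vector and 15, 8 and 12 in TFCP2L1 libraries, with no overlap. Of the 50-base stretches of its annotated model, 83.7% also occur in other transcripts. H2AC16 had 0 reads in the vector libraries and 3, 0 and 16 in the TFCP2L1 libraries. Without the low-count filter it was the 1 replication-dependent gene called higher (edgeR adjusted p = 0.0450). H4C15 had 5, 5 and 1 reads in vector and 0 in each TFCP2L1 library. In direction these genes were mixed: 24 of the 38 had more reads in TFCP2L1 cells, 12 more in vector cells and 2 the same number.

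**Figure D4:**
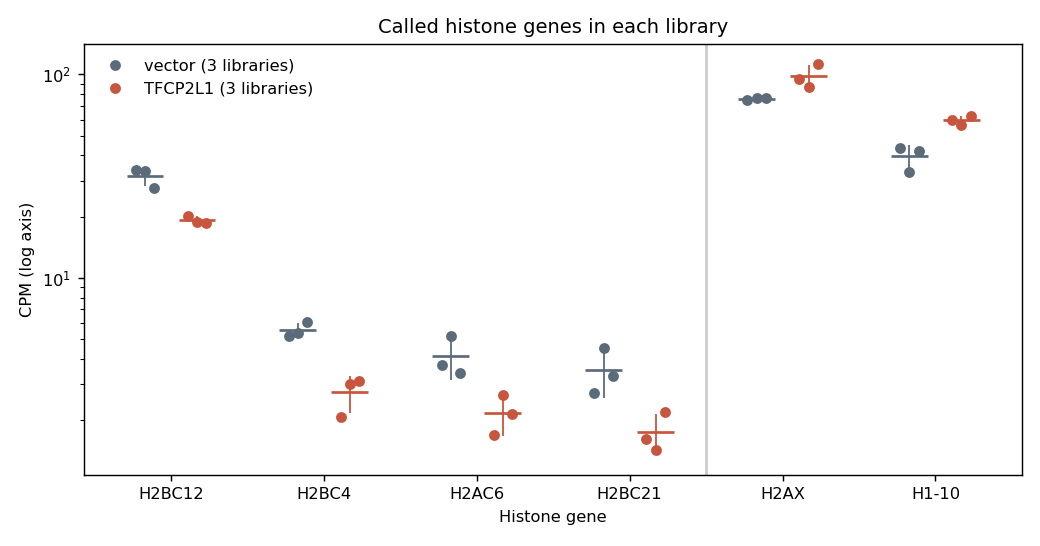
CPM (y axis, log) in each of the 6 libraries for the 6 histone genes with an edgeR adjusted p under 0.05, with bars at the group mean and 1 SD, 4 replication-dependent genes on the left and 2 variant genes on the right. The groups do not overlap for any of the 6, and H2BC12 averages 31.7 CPM in vector and 19.2 CPM in TFCP2L1 libraries.

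H1-10, a linker histone also called H1X (ENSG00000184897.5; chromosome 3, 129314771 to 129316277, minus strand), stood at 43.4, 33.3 and 42.1 CPM in vector and 59.8, 56.4 and 62.7 CPM in TFCP2L1 libraries. The groups did not overlap. On the log2 scale H1-10 rose by 0.59 ± 0.10 (SE; edgeR adjusted p = 0.000899) and was called under all 16 alternative settings. The antisense gene H1-10-AS1 covers 22.9% of its exon bases, and had 13 to 26 reads a library.

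H2AX is the H2A variant that is phosphorylated at DNA breaks (ENSG00000188486.3; chromosome 11, 119093854 to 119095467, minus strand). Its level was 75.0, 77.0 and 76.5 CPM in vector and 94.7, 86.9 and 113 CPM in TFCP2L1 libraries, with no overlap and a wider spread in TFCP2L1 cells. H2AX rose by a log2 fold change of 0.37 ± 0.09 (edgeR adjusted p = 0.0144), and the adjusted p was 0.0712 without vector replicate 1, 0.0672 without vector replicate 3 and 0.0505 with the replicate number as a block. TFCP2L1 replicate 3 had the highest level of H1-10 and H2AX and the highest mitochondrial share. Without it the log2 fold changes were 0.55 and 0.25, both still called. The count of variant genes called was 1 without vector replicate 1 or 3.

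The other 7 variant genes were not called. H2AZ1, an H2A variant found around transcription starts, was the most abundant member per length, at 437 ± 21.5 FPKM (SD, n = 3) in vector and 487 ± 78.6 FPKM in TFCP2L1 cells. H3-3B and H3-3A, which encode the same replacement H3 protein, stood at 128 ± 7.45 and 144 ± 11.4 FPKM and at 56.9 ± 5.55 and 60.1 ± 7.56 FPKM. H2AJ had 40.4 ± 1.67 and 38.5 ± 9.71 FPKM and H2AZ2 14.8 ± 0.284 and 16.1 ± 1.22 FPKM. MACROH2A1, an H2A with a large extra domain linked to silent chromatin, had 213, 203 and 209 CPM in vector and 232, 238 and 226 CPM in TFCP2L1 libraries. Its groups did not overlap, but its log2 fold change was small (0.16 ± 0.07, edgeR adjusted p = 0.169), and 30.9% of its exon bases lie under antisense genes. MACROH2A2 was low, at 3.38 ± 0.265 and 3.32 ± 0.420 FPKM. The log2 fold changes of these 7 lay between -0.10 and 0.16, and 5 were above 0 and 2 below.

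Genes that make and handle histone mRNA were compared as a list of 22, all tested. Of these 4 rose and 0 fell (at an unadjusted p under 0.05, 7 higher and 1 lower by edgeR; DESeq2 called 4 higher and 0 lower), with a median log2 fold change of 0.14. Over all 14431 genes tested 4.63% were called higher, and 1705 were higher and 1926 lower at an unadjusted p under 0.05. CSTF3, a cleavage stimulation factor that also takes part in polyadenylation, rose from 47.4 ± 3.02 to 65.5 ± 3.58 CPM. POU2F1, which binds the octamer, rose from 42.4 ± 1.84 to 55.4 ± 4.11 CPM (log2 fold change 0.38 ± 0.09, edgeR adjusted p = 0.00703). FIP1L1, a polyadenylation factor, rose by 0.26 ± 0.08 and SRRT, a cap-binding partner, by 0.23 ± 0.07 on the log2 scale. The calls of FIP1L1 and SRRT were each lost in 5 of the 6 fits that leave out 1 library, and the count was 2 in 4 of those fits. Named beyond the rule, SLBP was at 75.5 ± 4.38 and 88.5 ± 6.02 CPM (edgeR adjusted p = 0.0800), and NPAT, the activator of histone clusters, at 38.2 ± 0.140 and 38.0 ± 2.49 CPM (0.976).

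A list of 31 genes, called chaperones here, held histone chaperones, which carry histones to DNA, and other histone-handling genes such as importins. All 31 were tested, and 6 rose and 0 fell. By edgeR 11 had an unadjusted p under 0.05, 10 of them higher, and DESeq2 called 6 higher and 0 lower. Over all genes tested 4.63% were called higher. The median log2 fold change of the chaperones was 0.16. HJURP, which loads the centromeric H3, rose from 122 ± 2.06 to 169 ± 7.57 CPM and the importin gene IPO4 from 58.1 ± 1.94 to 79.1 ± 5.03 CPM. ASF1A, a chaperone of H3 and H4, rose from 31.2 ± 2.20 to 42.3 ± 2.68 CPM, and CHAF1B, a subunit of the assembly factor CAF-1, from 20.9 ± 1.75 to 27.4 ± 1.18 CPM. CHAF1B did not pass when vector replicate 1, vector replicate 3 or TFCP2L1 replicate 1 was left out. The count was 3 without vector replicate 1, vector replicate 3 or TFCP2L1 replicate 1, and 10 without TFCP2L1 replicate 3.

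Of 30 genes of DNA replication in S phase, all tested, 7 rose and 0 fell (16 higher and 0 lower at an unadjusted p under 0.05 by edgeR; DESeq2 called 9 higher and 0 lower), beside 4.63% called higher over all genes tested. Their median log2 fold change was 0.20. GINS2, a subunit of the replicative helicase, rose from 13.1 ± 1.32 to 19.2 ± 0.737 CPM (log2 fold change 0.55 ± 0.11). MCM10, needed to start replication, rose by 0.37 ± 0.09 and the checkpoint gene CLSPN by 0.31 ± 0.08 on the log2 scale. Without vector replicate 1 both calls were lost, and that of CLSPN also without vector replicate 2. The helicase subunit gene MCM6 passed at 0.34 ± 0.11 (edgeR adjusted p = 0.0458), but its call was lost in 10 of 16 alternative settings, among them 5 of the 6 fits that leave out 1 library. Without TFCP2L1 replicate 2 its log2 fold change was 0.21. The S phase count was the least stable, at 1 without vector replicate 1, 3 without vector replicate 2, vector replicate 3 or TFCP2L1 replicate 1, 4 without TFCP2L1 replicate 2 and 11 without TFCP2L1 replicate 3. No test joined these lists to the histone genes.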

How the data were processed

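RNA-seq libraries of 3 vector and 3 TFCP2L1 samples of TPC1 cells were used. TRIzol served for RNA extraction and a VAHTS Universal V6 kit for library construction, per the labels' protocols. The submitters' processing notes name fastp, HISAT2, HTSeq and the build GRCh38.p13. The authors deposited raw read counts per gene and FPKM values, which equal count divided by gene length and library total. Columns were matched to samples by group and replicate number.

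Counts were filtered by filterByExpr, scaled by TMM and tested with edgeR 4.0.16 (R 4.3.3; quasi-likelihood, robust, two-sided), after a test on simulated data. Genes were called at an adjusted p under 0.05. The standard error is the log2 fold change over the square root of F. For a single gene the exact permutation test of 3 against 3 libraries cannot go below p = 0.1, the value for each of the 6 called members. Alternatives used DESeq2 1.42.0 and limma 3.58.1, other scalings and filters, FPKM with pseudocounts of 1 and 0.1, a replicate block and leaving out each library. Members and lists were chosen with earlier results of these data known. Named were called members, tested variants, up to 10 other tested members by FPKM and up to 4 called genes of each further list. Positions come from GENCODE v29 (GRCh38), matched for 60 of 64 members, and promoters from RefSeq (60 of 64). One item is not reported here. A list of 10 RNAs without a poly(A) tail was not analysed here.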

Additional observations from a re-analysis of the deposited data

How the results depend on the processing

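Directions of the 6 called members and of TFCP2L1 held under all 16 alternatives. The count of replication-dependent genes called ran from 2 to 5 over fits leaving out 1 library, and was 6 on FPKM, 5 without the low-count filter and 3 with the replicate block. Variant calls ran from 1 to 2 over fits leaving out 1 library. The replicate block gave 1 variant gene, 977 called genes in all (1670 without it), 2 histone mRNA control genes, 3 chaperones and 2 S phase genes. Leaving out 1 library gave 934 to 1872 called genes, 2 to 4 histone mRNA control genes, 3 to 10 chaperones and 1 to 11 S phase genes. Without scaling beyond library totals, 11 S phase genes and 884 higher and 903 lower genes in all were called (668 and 1002 with TMM). With limma on FPKM plus 1 or 0.1, 4 S phase genes were called. The ratio of replication-dependent read shares was 0.756 without H2BC12, with H2BC4, H2BC21 and H2AC6 still in the sum. Leaving out 1 library, it was 0.660 to 0.712. The cause of these shifts was not tested. Same-numbered libraries did not deviate together (correlations 0.0721, -0.161 and -0.124). Taken from means of only 3 libraries, these correlations cannot decide whether the numbers pair samples, and the labels do not say. The block changed the calls of H2BC21 and H2AX alone among the members. With 574 reads over 38 untested genes, depth limits what can be said of them. Shared sequence is a further limit. In 11 replication-dependent genes more than 50% of the 50-base stretches also occur in other transcripts, among them the untested H4C12 (100%) and H2AC14 (83.7%). The treatment of reads that match several genes is not stated.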

Other observations

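Other histone transcripts fell outside the symbol rule. H3-5, an H3 variant gene, was tested and had 49, 36 and 46 reads in vector and 74, 57 and 29 in TFCP2L1 libraries, a log2 fold change of 0.24 ± 0.37 (SE; edgeR adjusted p = 0.741). H4-16, an H4 gene, had 7, 0 and 12 against 2, 0 and 6 reads and was too low to test. H1-10-AS1, the antisense neighbour of H1-10, had a log2 fold change of 0.23 ± 0.47 (edgeR adjusted p = 0.818), with overlapping groups.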
